A study of Mus musculus with 6 samples.

Results

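Glycolysis is the chain of enzymes that splits glucose into pyruvate in the cytosol, and its transcripts, with those of glucose and lactate transporters, are classical targets of the hypoxia-inducible factors. These factors pair an oxygen-sensitive alpha subunit, marked for destruction by prolyl hydroxylases when oxygen is present, with a stable partner. In inflamed skin, activated keratinocytes, neutrophils and macrophages are all known to run glycolysis at a high rate. The gene set described here holds 36 such genes, listed by symbol, from glucose uptake to lactate export and from the oxygen-sensing machinery to genes it induces. Of these, 33 had a probe set that the platform annotation lists with 1 symbol, out of 19938 genes measured in that way, and the brightest such probe set over the 6 arrays stood for each gene. Gpi1 and Eno1 had no such probe set in the annotation used, Gapdh was listed only on probe sets shared with other symbols, and no value is given for these 3.

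Mice were 10 to 12 weeks old, and the RNA of each array came from the whole skin of 1 ear of 1 mouse, with 3 mice per group. The first group carried the CLEC4C-DTR transgene on one chromosome copy (CLEC4C-DTR/+), which puts the diphtheria toxin receptor under CLEC4C control sequences, a promoter known from human plasmacytoid dendritic cells. The second group were littermates without it. Mice of both groups were given 200 ng of diphtheria toxin on days -1, 1, 3 and 5, were painted on the shaved abdomen with 100 µL of 0.5% FITC, a skin sensitiser, on days 0 and 2, and received 20 µL of it on the right ear on day 6. Every array is therefore from a FITC-challenged ear of a toxin-treated mouse. Ears without FITC and carriers without toxin were not analysed here, so effects of the genotype, of the toxin in carriers and of the challenge cannot be told apart.

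All values are log2 values made by the authors with RMA, a method that corrects background, brings the arrays to one distribution and summarises the probes of a set. The median over all probe sets was 6.17 to 6.23 on the 6 arrays. The keratins Krt5, Krt14 and Krt10, which define epidermis, had mean log2 values of 12.11, 12.10 and 12.33 in CLEC4C-DTR skin and 12.26, 12.08 and 12.78 in controls, so the samples carried the markers of the labelled tissue. The 3 arrays per group limit the precision of each value, and in whole skin a change in the number of cells of a type cannot be told apart from a change in RNA per cell. The array set holds no measure of background, so no gene was called present or absent.

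Most of the set, which was chosen with earlier results of these data known, was higher in CLEC4C-DTR skin. Of the 33 genes, 20 rose and 1 fell (limma, adjusted p under 0.05 over all 19938 genes), while 5.01% of all genes were called higher and 4.31% lower. The rises ran from 1.30-fold for Car9 to 3.71-fold for the glucose transporter Slc2a3, and 6 of them were at least 2-fold, a size that 1.67% of all genes passed. The single fall was that of Ldhb, the lactate dehydrogenase subunit of heart and other oxidative tissues. The median log2 difference over the 33 genes was 0.48, beside -0.04 over all genes. The 3 values of one group lay wholly beyond the 3 of the other for 23 genes in the higher and 4 in the lower direction, where the shares over all genes were 14.0% and 19.0%. The set was brighter than most genes: 30 of the 33 lay at or above the median level of all genes. Calls were more frequent among bright genes. A fit on the 9969 genes above the median level called 1897 of them in either direction, and 19 members higher and 2 lower. The total of that fit was not split by direction, so it gives no share of rises among bright genes.

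**Figure D1:**
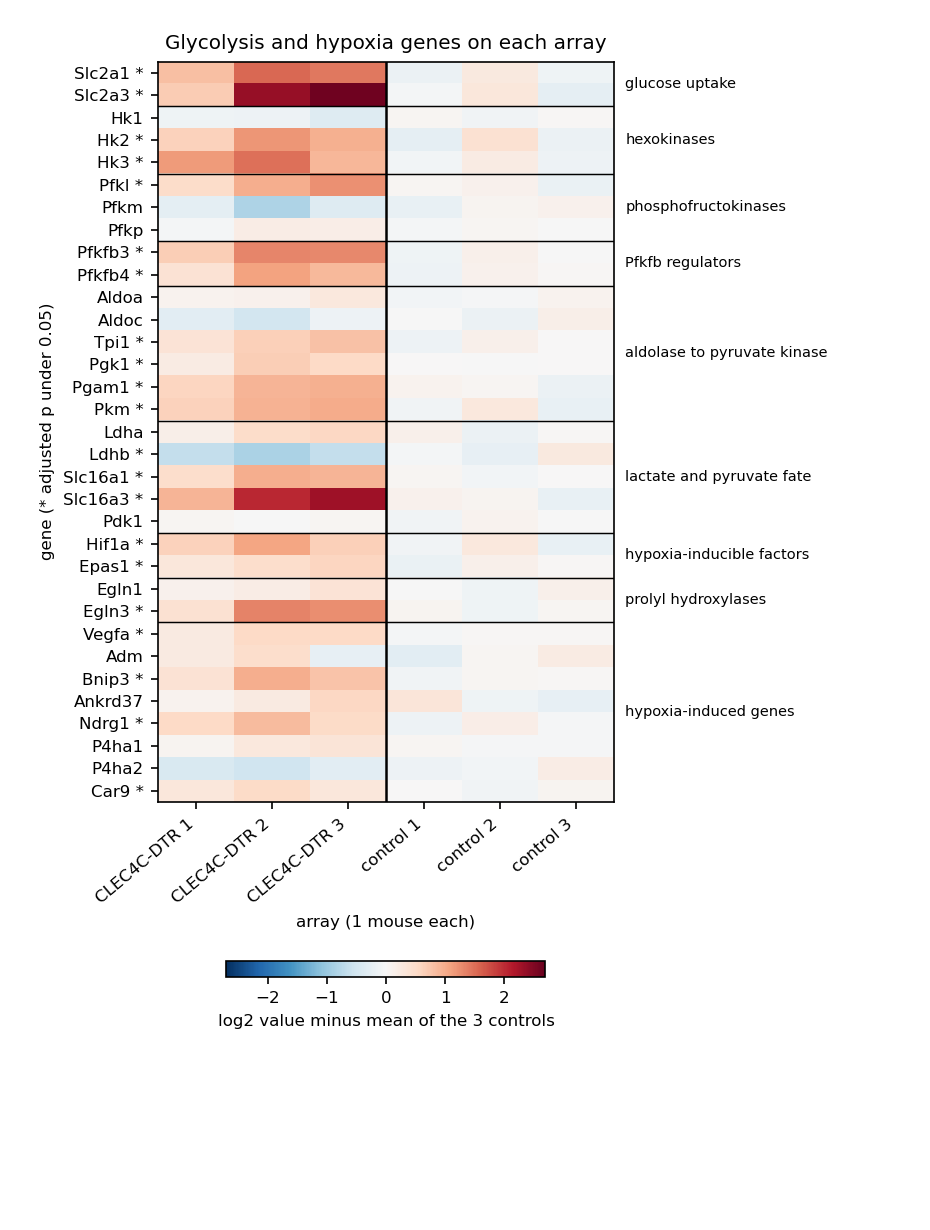
Log2 value of each of the 33 genes on each of the 6 arrays, minus the mean of the 3 controls for that gene. Rows are genes grouped by role, columns are arrays with 1 mouse each, red is above and blue below the control mean, and an asterisk marks an adjusted p under 0.05. Red fills most rows of the CLEC4C-DTR arrays, palest on replicate 1, and Ldhb is the only asterisked row in blue.

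The calls depended on single arrays far more than the sizes did. Leaving out CLEC4C-DTR replicate 1 gave 21 rises, leaving out replicate 2 of that group gave 4, and leaving out its replicate 3 gave 1. Leaving out control replicate 2 gave 12 rises. Limma called 0 of the 33 genes when control replicate 1 was dropped and 0 when control replicate 3 was, although 25 and 24 of them had an unadjusted p under 0.05. Of all 19938 genes, 4446 and 3788 had such a p in those fits, and 167 and 67 were called. Calls over all genes numbered 2617, 466 and 108 without CLEC4C-DTR replicates 1, 2 and 3, and 1219 without control replicate 2. The median log2 difference of the set stayed between 0.45 and 0.60 in these 6 fits. Averaged over the set, CLEC4C-DTR replicates 1, 2 and 3 exceeded the control mean by 0.30, 0.64 and 0.63 on the log2 scale, and controls 1, 2 and 3 lay at -0.05, 0.05 and -0.01. CLEC4C-DTR replicate 1 was the lowest of its group for 17 of the 20 genes that rose.

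**Figure D2:**
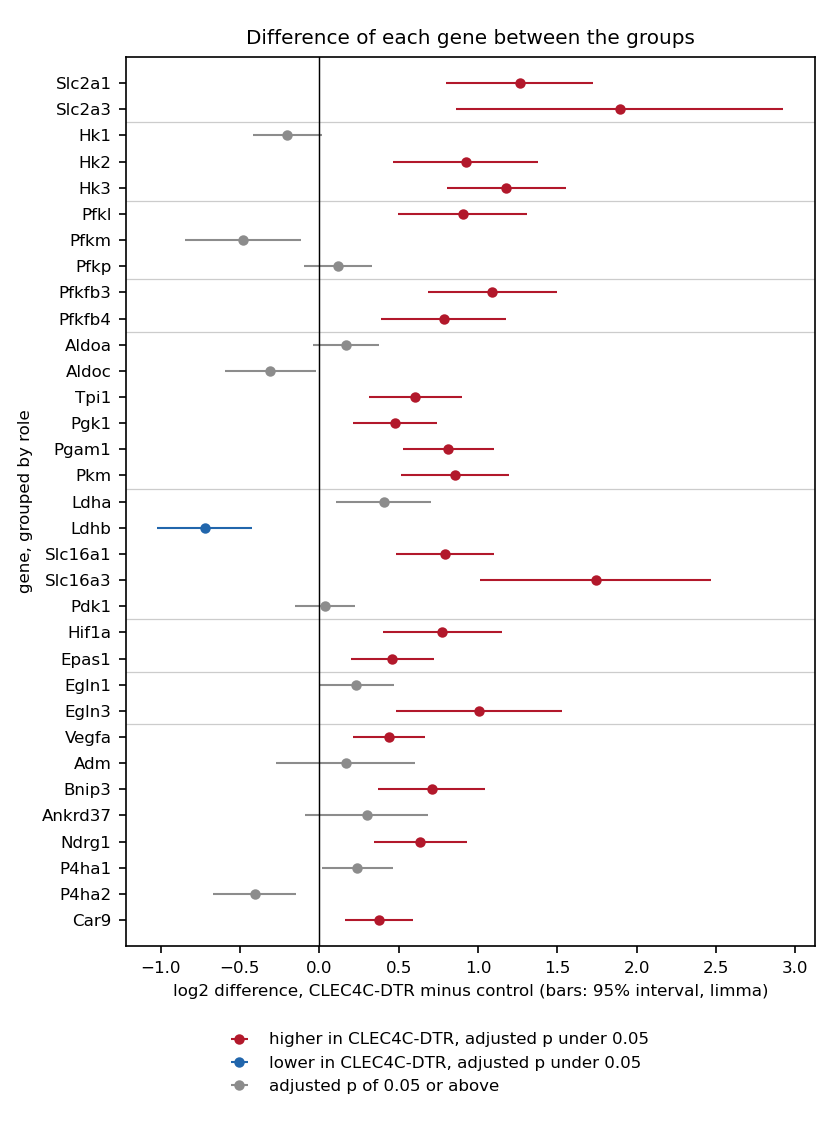
Log2 difference, CLEC4C-DTR minus control, of each gene with its 95% interval from limma (n = 3 per group). Genes run down the page by role, red points rose, the blue point fell, and grey points did not pass an adjusted p of 0.05. The longest intervals belong to Slc2a3 and Slc16a3, whose differences were 1.89 and 1.74.

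Hypoxia-inducible factors bind short DNA words, and the promoters of the genes on which the results turn are printed to show where these words lie. The words ACGTG and GCGTG were searched on both strands in the 250 bases before each RefSeq start site (build GRCm38.p6), so that a palindrome CACGTG counts on each strand and overlapping matches each count. Among genes with only 1 window, the window ended at the annotated gene start in 17087 of 22862 compared. A window was found for 30 of the 33 genes, with none for Slc2a3, Epas1 and Ndrg1. At least 1 match lay in 35 of their 42 windows, in 38.6% of all 32851 windows, and in 64.6% of all windows whose GC content reached the members' median of 61.0%. Of the windows of genes that rose, 17 of 20 held a match, and of the windows of genes that were not called, 17 of 21 did. A match describes letters, not binding. Shown are Slc2a1 and Slc16a3, which had the largest rises among genes with a window, Hk3, which had the smallest p of the set, Bnip3, which had the most matches among genes that rose (5, in 4 capital stretches), and Ldhb, which fell. Capitals mark the matches on either strand, and each sequence runs 5′ to 3′ on the gene's strand.
Slc2a1, chr4:119108495-119108744, plus strand: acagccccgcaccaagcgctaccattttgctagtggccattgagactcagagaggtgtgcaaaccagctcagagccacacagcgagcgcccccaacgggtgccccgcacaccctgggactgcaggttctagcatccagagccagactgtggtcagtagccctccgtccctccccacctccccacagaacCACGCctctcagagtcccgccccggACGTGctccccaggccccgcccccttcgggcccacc
Slc16a3, chr11:120948817-120949066, plus strand: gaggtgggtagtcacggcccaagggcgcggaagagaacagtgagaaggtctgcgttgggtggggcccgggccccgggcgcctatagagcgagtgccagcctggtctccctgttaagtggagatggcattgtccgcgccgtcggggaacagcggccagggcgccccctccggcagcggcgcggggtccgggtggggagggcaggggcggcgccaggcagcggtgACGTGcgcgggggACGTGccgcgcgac
Hk3, chr13:55021386-55021635, minus strand: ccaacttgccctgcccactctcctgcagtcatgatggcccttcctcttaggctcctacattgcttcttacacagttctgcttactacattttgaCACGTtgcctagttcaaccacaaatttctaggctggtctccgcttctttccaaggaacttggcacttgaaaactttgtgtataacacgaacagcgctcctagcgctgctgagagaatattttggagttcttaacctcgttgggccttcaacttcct
Bnip3, chr7:138909507-138909756, minus strand: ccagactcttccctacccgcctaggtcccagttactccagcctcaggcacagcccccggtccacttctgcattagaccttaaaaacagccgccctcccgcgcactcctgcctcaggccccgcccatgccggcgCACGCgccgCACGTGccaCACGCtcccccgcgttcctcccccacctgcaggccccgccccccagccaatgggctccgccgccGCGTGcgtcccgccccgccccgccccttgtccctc
Ldhb, chr6:142507958-142508207, minus strand: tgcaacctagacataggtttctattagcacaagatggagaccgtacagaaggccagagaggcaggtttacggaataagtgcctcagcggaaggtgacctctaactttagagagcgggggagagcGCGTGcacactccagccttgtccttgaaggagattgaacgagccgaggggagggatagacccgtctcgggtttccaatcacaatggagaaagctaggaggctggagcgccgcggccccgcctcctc

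Both glucose transporters of the set rose. Slc2a1, the basal glucose carrier of epidermis and endothelium, had log2 values of 9.35, 10.09 and 9.98 in CLEC4C-DTR mice, against 8.39, 8.81 and 8.44 in controls. The groups did not overlap, and the difference was 2.40-fold (log2 1.26, SE 0.20, adjusted p = 0.0166, limma). Slc2a3, a high-affinity carrier of neurons and activated leukocytes, had 6.62, 8.29 and 8.56 in CLEC4C-DTR mice, against 5.87, 6.23 and 5.69 in controls. It rose 3.71-fold (log2 1.89, SE 0.45, adjusted p = 0.0402), with CLEC4C-DTR replicates 2 and 3 far above replicate 1. Its log2 difference was 2.49 without CLEC4C-DTR replicate 1, the one fit of 6 with an array left out in which it passed, and 1.66 and 1.52 without replicates 2 and 3 (adjusted p = 0.111 and 0.115). The call was also lost with robust eBayes (adjusted p = 0.0666).

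Of the hexokinases, which trap glucose by phosphorylation, the inducible and the myeloid form rose. Hk3, the form of granulocytes and macrophages, had log2 values of 7.63, 7.98 and 7.38 in CLEC4C-DTR skin, against 6.42, 6.70 and 6.34 in controls (2.26-fold, log2 1.18, SE 0.16, adjusted p = 0.0128). This was the smallest p of the set, and Hk3 passed in 4 of the 6 fits with 1 array left out, more often than any other member. Hk2, the form induced by insulin and hypoxia, had 7.77, 8.33 and 8.11 in CLEC4C-DTR skin, against 6.90, 7.56 and 6.98 in controls (1.89-fold, adjusted p = 0.0317). The groups did not overlap for either gene, but control replicate 2 came close to CLEC4C-DTR replicate 1 for Hk2. Hk1, the housekeeping form, gave opposite directions on its 2 probe sets. The brighter one differed by -0.20 (95% interval -0.42 to 0.02, adjusted p = 0.218), and the other by 0.53 with groups that did not overlap, so no direction is given for Hk1.

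Phosphofructokinase, the committed step, is a tetramer of liver-type, muscle-type and platelet-type subunits, and of these Pfkl alone passed the test. Pfkl, the liver-type subunit, had log2 values of 7.06, 7.54 and 7.78 in CLEC4C-DTR mice, against 6.61, 6.67 and 6.38 in controls, and rose 1.87-fold (SE 0.18 on the log2 scale, adjusted p = 0.0253). Pfkm, the muscle-type subunit, differed by -0.48 (SE 0.16, adjusted p = 0.0963), with all 3 CLEC4C-DTR values below the controls. Pfkp, the platelet-type subunit, differed by 0.12 (95% interval -0.10 to 0.33). The bifunctional Pfkfb enzymes set the level of fructose 2,6-bisphosphate, the strongest activator of this step. Pfkfb3, whose kinase activity dominates, had 7.93, 8.59 and 8.57 in CLEC4C-DTR mice, against 7.16, 7.40 and 7.25 in controls, a 2.13-fold rise (log2 1.09, SE 0.18, adjusted p = 0.0170). Pfkfb4 had 6.62, 7.31 and 7.10 in CLEC4C-DTR mice, against 6.09, 6.34 and 6.25 in controls, a 1.72-fold rise (adjusted p = 0.0326).

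Of the 6 measured members that act between aldolase and pyruvate kinase 4 rose, all by less than 2-fold. Pgam1, a phosphoglycerate mutase, had log2 values of 9.51, 9.84 and 9.89 in CLEC4C-DTR skin, against 9.03, 8.98 and 8.78 in controls (1.76-fold, SE 0.12 on the log2 scale, adjusted p = 0.0148). Pkm, the pyruvate kinase of most adult tissues, had 11.02, 11.34 and 11.39 in CLEC4C-DTR skin, against 10.31, 10.67 and 10.20 in controls (1.81-fold, adjusted p = 0.0184). The 2 known splice forms of Pkm were not analysed separately. Tpi1, triosephosphate isomerase, had 9.05, 9.33 and 9.48 in CLEC4C-DTR skin, against 8.54, 8.81 and 8.69 in controls (1.52-fold, adjusted p = 0.0293). Pgk1, phosphoglycerate kinase, had 10.29, 10.73 and 10.59 in CLEC4C-DTR skin, against 10.07, 10.05 and 10.06 in controls (1.39-fold, adjusted p = 0.0415). None of these 4 genes had overlapping groups, and the controls of Pgk1 lay within 0.02 of each other. Processed pseudogenes of such enzymes are known in the mouse, and whether they share probes with these sets was not tested. Aldoa, the aldolase of muscle and most tissues, differed by 0.17 (95% interval -0.04 to 0.37), and Aldoc, the brain form, by -0.31 (adjusted p = 0.156). Tissue-restricted forms of these enzymes outside the set did not pass: Eno3 differed by -0.64, Pgam2 by -0.50, Eno2 by -0.38 and Gapdhs by -0.24, each without overlap of the groups, and Pklr by -0.02 and Pgk2 by 0.03. Of the 17 measured glycolysis genes outside the set, 6 had groups without overlap in the lower direction and 1 in the higher. The shares over all genes were 19.0% and 14.0%.

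At the lactate end, both monocarboxylate transporters of the set rose and 1 lactate dehydrogenase subunit fell. Slc16a3, the lactate exporter of glycolytic cells, had log2 values of 7.65, 8.77 and 9.03 in CLEC4C-DTR mice, against 6.86, 6.82 and 6.55 in controls (3.35-fold, log2 1.74, SE 0.32, adjusted p = 0.0203). Slc16a1, a carrier that moves lactate either way, had 7.55, 8.06 and 7.98 in CLEC4C-DTR mice, against 7.13, 6.99 and 7.09 in controls (1.73-fold, log2 0.79, SE 0.13, adjusted p = 0.0180). Neither gene had overlapping groups, and CLEC4C-DTR replicate 1 was the lowest of its group for both. Slc16a7, another carrier of this family and no member of the set, differed by -0.34 (adjusted p = 0.265), with overlapping groups. Ldhb fell to 7.39, 7.19 and 7.39 in CLEC4C-DTR mice, against 7.99, 7.83 and 8.30 in controls (log2 -0.72, SE 0.13, adjusted p = 0.0198). Its second probe set differed by -0.56, again without overlap. Ldha, the subunit that favours lactate formation, differed by 0.41 (95% interval 0.11 to 0.70, adjusted p = 0.0880), and it passed only without CLEC4C-DTR replicate 1 (adjusted p = 0.0222). Pdk1, a kinase that limits pyruvate entry into the citrate cycle and a textbook hypoxia target, differed by 0.04 (95% interval -0.15 to 0.23).

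**Figure D3:**
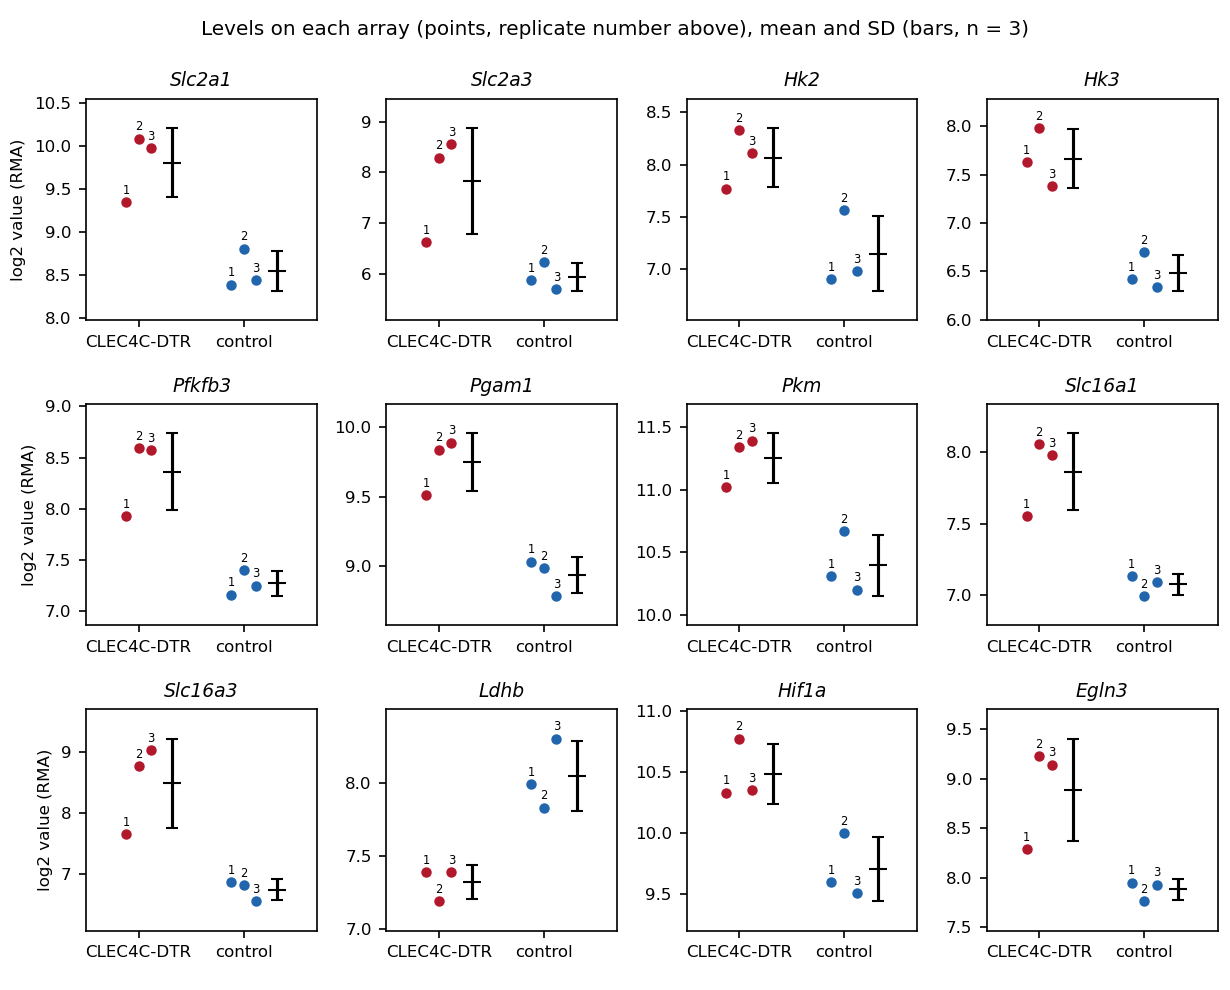
Log2 values on each array (points, with replicate number) for 12 genes, with the mean and SD of each group (n = 3) to the right of its points, CLEC4C-DTR in red and control in blue. The vertical scale differs between panels and does not start at 0. The groups are apart in every panel, and Slc2a3, Slc16a3 and Egln3 show CLEC4C-DTR replicate 1 nearer to the controls than replicates 2 and 3.

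Transcripts of 2 of the 3 measured alpha subunits of the hypoxia-inducible factors rose, Hif1a and Epas1, both in the set. Hif1a, the broadly expressed subunit, had log2 values of 10.33, 10.77 and 10.35 in CLEC4C-DTR skin, against 9.60, 10.00 and 9.51 in controls (1.71-fold, SE 0.16 on the log2 scale, adjusted p = 0.0293). Epas1, which encodes the alpha subunit of endothelium and some myeloid cells, had 8.81, 8.97 and 9.07 in CLEC4C-DTR skin, against 8.31, 8.64 and 8.53 in controls (1.37-fold, adjusted p = 0.0453). The groups did not overlap for either. Epas1 passed in 8 of 11 fits with another setting, with a further quantile normalisation among those in which it did not, and in 1 of the 6 fits with 1 array left out. Hif3a, the third alpha subunit and no member of the set, differed by -0.11 (95% interval -0.37 to 0.15, adjusted p = 0.572), with overlapping groups. These subunits are controlled largely as proteins, which arrays do not measure. The prolyl hydroxylases mark them for destruction. Egln3, the form most strongly induced by hypoxia, had 8.29, 9.23 and 9.14 in CLEC4C-DTR skin, against 7.95, 7.76 and 7.93 in controls (2.01-fold, log2 1.01, SE 0.23, adjusted p = 0.0353). Egln1, the main oxygen sensor, differed by 0.23 (SE 0.10, adjusted p = 0.191), and its groups overlapped.

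Of 8 genes chosen as hypoxia-induced, 4 rose, none fell and 4 did not pass. Ndrg1, a stress and differentiation gene, had log2 values of 8.99, 9.32 and 8.98 in CLEC4C-DTR mice, against 8.32, 8.64 and 8.42 in controls (1.56-fold, adjusted p = 0.0259). Bnip3, a mitochondrial receptor for mitophagy, had 9.01, 9.61 and 9.39 in CLEC4C-DTR mice, against 8.53, 8.69 and 8.67 in controls (1.63-fold, adjusted p = 0.0288). Vegfa, the vascular growth factor, had 8.21, 8.50 and 8.49 in CLEC4C-DTR mice, against 7.91, 7.99 and 7.99 in controls (1.36-fold, adjusted p = 0.0354). All 3 rose without overlap of the groups. Car9, a membrane carbonic anhydrase and a classical hypoxia marker, had 5.70, 5.91 and 5.69 in CLEC4C-DTR mice, against 5.39, 5.30 and 5.47 in controls. Its rise was 1.30-fold (adjusted p = 0.0457), the smallest of the set, and its groups did not overlap. The call was lost with the replicate number as a block (adjusted p = 0.0734), and Car9 was not among the genes above the median level. Adm, which encodes the vasodilator adrenomedullin, differed by 0.17 (95% interval -0.27 to 0.60) and Ankrd37 by 0.30 (95% interval -0.09 to 0.69), both with overlapping groups. The collagen prolyl hydroxylase subunits P4ha1 and P4ha2 differed by 0.24 (adjusted p = 0.154) and -0.41 (adjusted p = 0.0637), and the groups overlapped for neither.

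Related genes that serve the same step were set against each other within each array, as the log2 ratio of the pair less its mean in the controls. None of the 12 pairs passed. The lowest exact permutation p was 0.1 (two-sided, 0.12 after Benjamini-Hochberg over the 12), the smallest that 3 against 3 arrays can give, so the ratios are given as a description. The ratio of Ldha to Ldhb was higher by 0.81, 1.36 and 1.21 in CLEC4C-DTR replicates 1, 2 and 3, against 0.18, 0.05 and -0.24 in the controls. That of Egln3 to Egln1 was 0.30, 1.14 and 0.88 in CLEC4C-DTR mice, against 0.08, 0.00 and -0.08 in controls. For the lactate carriers, Slc16a3 over Slc16a1 was 0.42, 1.05 and 1.38 in CLEC4C-DTR mice, against 0.06, 0.16 and -0.22 in controls. Pfkp over Pfkl was lower in CLEC4C-DTR mice, at -0.54, -0.78 and -1.03, against -0.10, -0.05 and 0.16 in controls. For Slc2a3 over Slc2a1 the groups overlapped, with -0.12, 0.81 and 1.19 in CLEC4C-DTR mice and 0.09, 0.03 and -0.13 in controls (exact permutation p = 0.3), and likewise for Hif1a over Epas1 (exact permutation p = 0.3). The ratios of Hk2 and Hk3 to Hk1 rest on the brighter Hk1 probe set, whose direction the other one did not share.

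**Figure D4:**
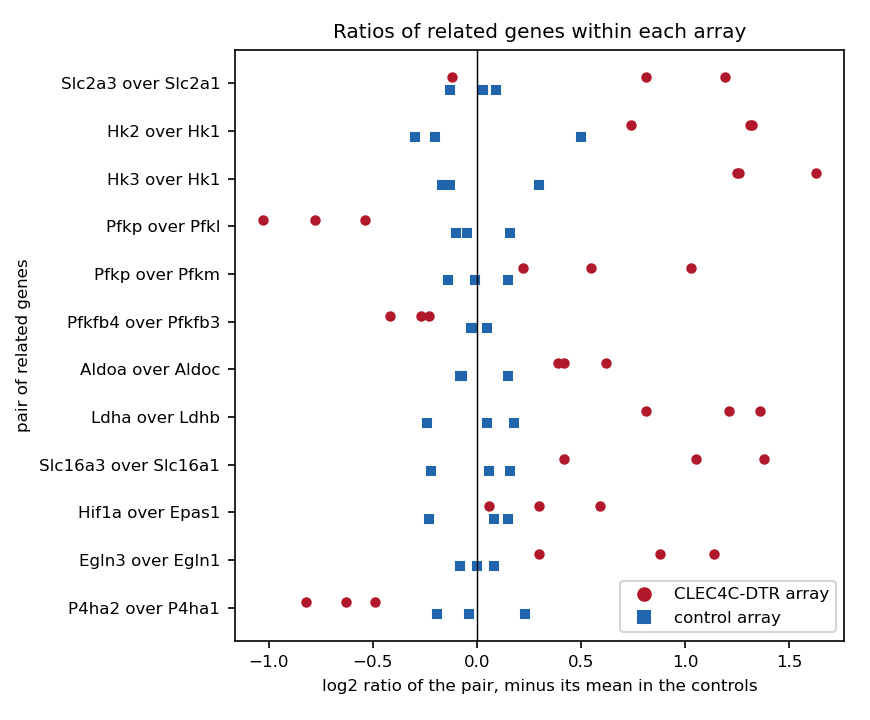
Log2 ratio of 12 pairs of related genes within each array, minus the mean ratio of the 3 controls, with red circles for CLEC4C-DTR arrays and blue squares for control arrays (n = 3 each). The circles and squares mix for Slc2a3 over Slc2a1 and for Hif1a over Epas1, and no pair passed the exact permutation test.

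Other genes of the same pathways moved in both directions. Over 6 lists with 104 measured genes, 12 were called higher and 6 lower, and the median log2 difference was 0.03. Among 17 further glycolysis genes, Slc2a6, a lysosomal member of the glucose transporter family, rose by 0.48 (adjusted p = 0.0475) and Pfkfb2, the heart form of the Pfkfb enzymes, fell by 0.42 (log2, adjusted p = 0.0310). The median of that list was -0.20. Of 27 genes of pyruvate entry and the citrate cycle, 0 passed in limma, 2 had an unadjusted p under 0.05, and the median was -0.0014. Of 7 pentose phosphate genes, 1 rose, H6pd, the enzyme of the endoplasmic reticulum, by 0.45 (adjusted p = 0.0251). Glycogen genes split, with 3 rises and 2 falls among 13. Pygl, the liver-type glycogen phosphorylase, rose 2.12-fold (adjusted p = 0.0461), Ppp1r3b, a targeting subunit that promotes glycogen synthesis, 2.28-fold (adjusted p = 0.0337) and the phosphoglucomutase gene Pgm1 1.46-fold (adjusted p = 0.0391). The branching enzyme Gbe1 fell by 0.45 (log2) and Ugp2, which makes UDP-glucose, fell by 0.42 (log2).

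The wider hypoxia lists were also divided. Of 10 further regulators of the factors, 1 fell, the ubiquitin ligase Siah1a, which fell by 0.51 (log2, adjusted p = 0.0424), and none rose. Of 33 further hypoxia-induced genes, 7 rose, 4 fell and 22 did not pass, with a median log2 difference of 0.07. Ero1a, an oxidase of protein folding, rose 1.91-fold (adjusted p = 0.0242) and Higd1a, a mitochondrial protein, 1.62-fold (adjusted p = 0.0166). Insig2, which restrains sterol synthesis, fell by 0.56 (log2, adjusted p = 0.0151), and Gbe1, counted in the glycogen list too, is the other gene among the 4 with the smallest p. The remaining calls were named after their values were seen. Nos2 and Hmox1, which inflammation and oxidative stress also induce, rose 3.40-fold and 2.26-fold, Fam162a 1.60-fold, Ddit4 1.37-fold and Mif 1.26-fold, while Rora fell by 0.84 and Pfkfb2 by 0.42 on the log2 scale.

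**Figure D5:**
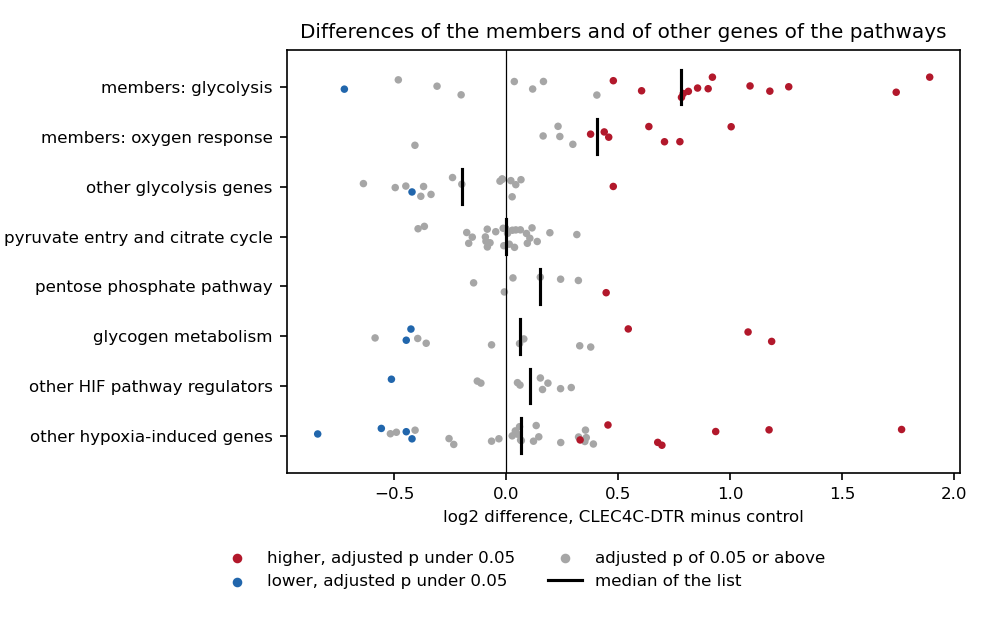
Log2 difference, CLEC4C-DTR minus control, of the members (upper 2 rows) and of the genes of 6 other pathway lists, 1 point per gene, with the median of each row as a black bar. Red points rose and blue points fell at an adjusted p under 0.05. The medians of the member rows are 0.78 for glycolysis and 0.41 for the oxygen response, and those of the other rows lie between -0.20 and 0.15.

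Markers of several cell types moved with these genes. The marker lists were chosen with earlier results of these data known, so their counts are given as a description. Of 15 neutrophil genes 11 rose and none fell, and their summed linear level was 22143 to 36653 in CLEC4C-DTR skin, against 8431 to 9425 in controls. Their mean log2 shift was 1.07, 2.43 and 2.24 in CLEC4C-DTR replicates 1, 2 and 3. Of 12 monocyte and macrophage genes 8 rose, with a summed level of 8822 to 11260 in CLEC4C-DTR skin and 5583 to 6995 in controls. The difference was positive for 11 of the 12 and negative for Lyz2, at -0.21 (adjusted p = 0.139). All 13 measured activated keratinocyte genes rose, with a summed level of 27089 to 43861 in CLEC4C-DTR skin and 9077 to 11886 in controls. Of 11 cell cycle genes 4 rose, with sums of 2251 to 3414 in CLEC4C-DTR skin and 1680 to 1820 in controls. CLEC4C-DTR replicate 1 had the lowest mean log2 shift of its group in each of these lists, not in neutrophil genes alone. In replicates 1, 2 and 3 the shift was 0.78, 0.99 and 1.22 for monocyte and macrophage genes. It was 1.98, 2.98 and 2.86 for activated keratinocyte genes, and 0.34, 0.52 and 1.01 for cell cycle genes. The lowest value on any array was 1.60, so no gene could be listed at 0, and detection of the markers was not tested. The part of these cells in the rises of Slc2a3, Hk3 and the other genes above was not tested.

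Skeletal muscle, which lies under the ear skin and is rich in several of these enzymes, gave lower values in CLEC4C-DTR mice. All 15 muscle genes had negative differences and 5 fell, among them Mylpf, a fast myosin light chain, which fell by 1.06 (log2, adjusted p = 0.0213). Their summed level was 6963 to 9560 in CLEC4C-DTR ears and 11055 to 16850 in controls. Pgam2 and Eno3, named above, are the muscle forms of their enzymes (adjusted p = 0.0779 and 0.0503). The part of muscle in the values of Pfkm, Ldhb and Aldoa was not tested. Of 14 endothelial genes, which bear on Epas1 and Slc2a1, Eng and Pecam1 rose by 0.42 and 0.40 (log2) and none fell, with sums of 1912 to 1981 in CLEC4C-DTR skin and 1801 to 1878 in controls. The differences of 9 of these 14 genes were negative, and the median of the list was -0.05. The groups did not overlap for 2 of the 14 in the higher and 2 in the lower direction, where the shares over all genes were 14.0% and 19.0%. The latter were Tek and Erg, which differed by -0.23 and -0.24 and did not pass (adjusted p = 0.174 and 0.136). None of 4 measured red blood cell genes passed, with 2 at an unadjusted p under 0.05, both toward lower values in limma. Of the other lists, 2 of 7 adipocyte genes fell, 1 of 10 basal keratinocyte genes fell, 1 of 9 differentiated keratinocyte genes rose, and 1 of 9 fibroblast genes rose and 1 fell. Of 9 plasmacytoid dendritic cell genes 0 passed in limma, and 3 had an unadjusted p under 0.05, as did 5437 of all 19938 genes. These 3 went both ways: Bst2 and Cd209d differed by 0.57 and 0.79, and Tcf4 by -0.41 (log2).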

How the data were processed

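The deposited table holds log2 values for 35556 probe sets on 6 Affymetrix arrays, made by the authors with RMA, as the design text of the series states. Values of 1.60 to 13.9 fit that scale. No source used here names the RMA software. A build, mm8, appears without a role, per the submitters' processing notes. Probe sets with 1 symbol (21789) were kept, the brightest per gene, which gave 19938 genes; those with several symbols (1621) or not listed (12146) were left out. The difference between CLEC4C-DTR and littermate control arrays was fitted in limma 3.58.1 (lmFit and eBayes, R 4.3.3), two-sided, without covariates, with Benjamini-Hochberg adjustment over all genes, and called at 0.05; all adjusted p-values are from that fit unless another setting is named. The fit was tested on simulated data. Summed levels add linear values (2 to the power of the log2 value). Every called member is given on each array, and of other lists up to 4 genes with the smallest p. Further genes of these lists are named outside that rule, among them relatives of members and remaining calls. The members and lists were chosen with earlier results of these data known. No pair of arrays held identical values. Promoters are from RefSeq, build GRCm38.p6. Figures used matplotlib 3.10.9.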

Additional observations from a re-analysis of the deposited data

How the results depend on the processing

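The 21 calls kept their direction in each alternative in which the gene was fitted; Car9 was not in the fit on genes above the median level. With 1 array left out, all genes called ranged from 67 to 2617 (1858 with all arrays), those at 2-fold from 40 to 624 (408 with all arrays), members that rose from 0 to 21, members that fell from 0 to 1, and the members' median from 0.45 to 0.60. With variances not moderated limma's linear model called 0 genes, 0 at 2-fold, 0 members higher and 0 lower, with 4387 genes and 22 members at an unadjusted p under 0.05. With all 35556 probe sets as features it called 95 genes, 51 at 2-fold, and 0 members in either direction, with 25 members at an unadjusted p under 0.05. The cause was not tested. Over genes above the median level, 2 members fell (Ldhb and P4ha2) and the members' median was 0.62, over fewer genes. Same-numbered arrays deviated with correlations of -0.06, 0.22 and 0.10, so the numbers are not treated as pairing; with the replicate block, 2084 genes were called, 19 members rose (Car9 did not pass) and 2 fell. Hk1 reversed to 0.17 when its probe sets were averaged. Pdk1, close to 0 throughout, ranged from -0.011 to 0.085 with 1 array left out. The other alternatives gave 19 or 20 rises and 1 fall.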

Other observations

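Of the members with more than 1 probe set (6 genes), 5 gave the same direction on each of them. Bnip3 differed by 0.71 and 0.74, Pkm by 0.86 and 0.97, Ldhb by -0.72 and -0.56, Pgam1 by 0.81 to 0.97 and Pgk1 by 0.48 to 0.49 (log2, CLEC4C-DTR minus control). Pgam1 and Pgk1 each had a pair of probe sets with the same values on every array. Hk1 was the exception. Its brighter probe set had log2 values of 11.40, 11.38 and 11.17 in CLEC4C-DTR mice, against 11.58, 11.43 and 11.55 in controls, and the other had 7.96, 8.27 and 8.39 in CLEC4C-DTR mice, against 7.68, 7.67 and 7.68 in controls. The groups did not overlap on either, and the sequence of the probes was not analysed here.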
